A study of Mus musculus with 2 samples.

Results

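Cycling *Atoh7* neurogenic progenitors are retinal progenitor cells that have switched on the neurogenic factor *Atoh7* while still dividing. They were taken from single-cell RNA-seq of mouse eyecups at E13.5, as cells with at least 3 *Atoh7* UMIs and at least 2 UMIs of *Top2a* and *Mki67* combined, where a UMI is a counted transcript molecule. Of 17458 cells kept by limits on gene number, mitochondrial, hemoglobin and lens crystallin RNA, out of 22987 in all, 1434 met this rule. They comprised 832 of 7331 kept control cells and 602 of 10127 kept DKO cells, and are called the members below.

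The control eyecups were *Six3*+/-;*Six6*+/-, and the littermate DKO eyecups were *Six3*F/F;*Six6*-/-;*a-Cre*, so both genotypes carried at least 1 inactive *Six6* allele and the control also lacked 1 functional *Six3* allele. *Six3* and *Six6* encode related homeodomain factors of the developing eye. The Cre transgene is active in the peripheral retina from before the sampled stage, so the DKO library mixed cells that lost *Six3* with cells that kept it, while *Six6* was deleted in every DKO cell. The control label names no Cre, so effects of Cre and of the *Six3* and *Six6* alleles cannot be told apart. There was 1 library for each genotype. The paper describes the eyecups of each as taken from an embryo, so genotype cannot be told apart from the single animal. No difference below therefore has a replicate check, no p-value was computed, and every interval is a 95% exact interval that covers counting error only.

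*Atoh7* is a basic helix-loop-helix (bHLH) transcription factor needed for ganglion cells. In the embryonic retina, naive progenitors divide under Notch signalling, in which ligands such as Dll1 and Dll4 on 1 cell activate Notch on its neighbour and the HES repressors that hold back neurogenic bHLH genes. Progenitors that escape this inhibition express *Atoh7*, *Hes6* and Notch ligands, divide a last time and leave the cell cycle as young neurons.

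Short promoter stretches are shown for *Atoh7*, which defines the members, and for *Hes5*, the Notch-activated repressor that differed most between genotypes in its family. Both come from RefSeq promoter windows of 250 bases before the gene start on GRCm38.p6, plus strand, and capitals mark the motif searched on both strands. The *Atoh7* window held 2 matches to CACCTG, an E-box form bound by neurogenic bHLH factors, starting 67 and 57 bases before the RefSeq start. GENCODE places the gene start upstream, which puts these bases inside its first exon. The *Hes5* window held 2 matches to GTGGGAA, the form of site known for RBPJ, the DNA-binding partner of Notch, at 226 and 83 bases before the start. Among 32851 RefSeq windows of the same length, 17.2% held CACCTG and 5.42% held GTGGGAA. A match is a description of the letters and says nothing of binding in these cells.
Atoh7, chr10:63099711-63099740: gcccgccCACCTGccacCACCTGttccctc
Hes5, chr4:154960686-154960715: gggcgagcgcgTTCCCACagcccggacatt
Hes5, chr4:154960829-154960858: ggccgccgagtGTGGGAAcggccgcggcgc

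The members matched their label in genes that the rule did not use. *Hes6*, a bHLH factor that promotes neurogenesis, stood at 688 counts per 1000000 UMIs of the members (CPM) in control against 123 CPM in all other kept control cells, and *Mybl1*, a MYB family factor, at 314 against 33.8 CPM. *Dll4* stood at 57.2 against 3.59 CPM. Because other genes vary together with those in the rule, these values describe the members and test nothing. Of the markers of other cells, macrophage RNA differed most between the libraries. None of 9 macrophage markers reached 50 UMIs in the members of either library, but their summed level was 0.586 CPM in control and 44.9 CPM in DKO members, with 6 of the 9 at 0 in control and none at 0 in DKO. These UMIs came from 5 control and 21 DKO members, and 143 of the 243 in the DKO from 1 cell, and 8 of the 21 were called doublets. Without the members that held any of them, the count of genes at least 2-fold higher in the DKO was 127 in place of 133 and of those lower 52 in place of 56. In the other lists, 2 of 12 vessel and mesenchyme markers and 1 of 7 pigment epithelium markers reached 50 UMIs. Hemoglobin and crystallin RNA was present in both libraries. The summed level of the red blood cell markers was 1735 CPM in control and 1604 CPM in DKO members, and that of the lens markers 275 and 321 CPM.

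Members held a median of 8990.5 UMIs and 3115 genes in control and 7432 UMIs and 2828 genes in DKO, which made the DKO members shallower. A barcode that holds a pair of cells, 1 with *Atoh7* and 1 cycling, also meets the rule. Scrublet called 103 (12.4%) of the control members and 68 (11.3%) of the DKO members doublets, against 2.97% and 3.32% of all kept cells. In 1 member of each library, the barcode also occurred in the other library. Results that moved without the called doublets are given both ways.

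The members made up a smaller part of the DKO library. Their share of kept cells was 11.3% (10.6 to 12.1) in control and 5.94% (5.49 to 6.42) in DKO, a log2 ratio of DKO over control of -0.93 (-1.09 to -0.78). The size of that gap depended on the cells the share was taken of, and its source was not tested. Taken of cells with at least 3 *Atoh7* UMIs, 38.2% (36.1 to 40.3) of the control cells and 29.5% (27.5 to 31.5) of the DKO cells were cycling, a log2 ratio of -0.37 (-0.53 to -0.22). Taken of cycling cells, 25.7% (24.2 to 27.2) in control and 18.7% (17.3 to 20.1) in DKO carried *Atoh7*, a log2 ratio of -0.46 (-0.61 to -0.31). On all 3 denominators the DKO share was the lower and the intervals of the shares did not overlap.

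The lower share was also seen at equal depth. When cells were thinned to 4000 UMIs before the rule was applied, which left out 698 control and 1910 DKO cells, the shares were 9.21% and 4.75%. Without the called doublets they were 10.2% and 5.45%. Near the *Atoh7* limit, 49 control and 42 DKO members held exactly 3 *Atoh7* UMIs, and 58 and 64 cycling cells just outside held 2. Near the other limit, 59 control and 71 DKO members held 2 UMIs of *Top2a* and *Mki67*, and 212 and 185 *Atoh7* cells just outside held 1.

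**Figure D1:**
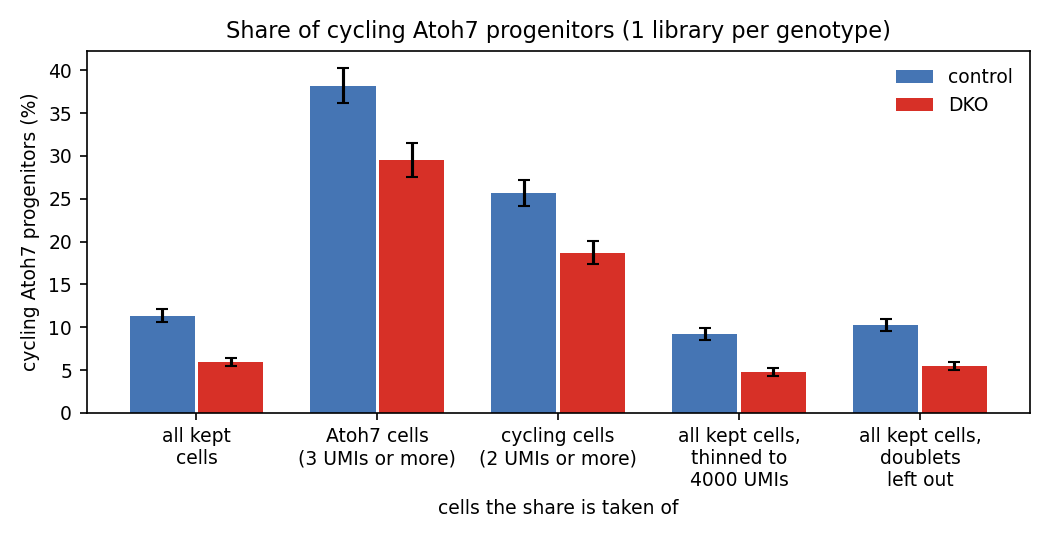
Cycling *Atoh7* progenitors as a percentage of the cells named on the x axis, in the control (blue) and DKO (red) library, with 95% exact binomial intervals for counting error. The DKO bar is the shorter on every denominator, from 11.3% against 5.94% of all kept cells to 38.2% against 29.5% of *Atoh7* cells.

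The targeted genes were read first. In control members *Six6* (ENSMUSG00000021099, chromosome 12, 72939892 to 72944899 in GRCm38) reached 241 (231 to 252) CPM, and 51.3 (45.5 to 57.7) CPM remained in DKO members, a log2 ratio of -2.23 (-2.42 to -2.05). It had no UMI in 22.6% of control and 66.4% of DKO members, so the label of the DKO library held in these cells, with residual transcript counted at the 3′ end. For *Six3* (ENSMUSG00000038805, chromosome 17, 85613608 to 85629302) the level was 298 (286 to 309) CPM in control and 324 (309 to 340) CPM in DKO members, a log2 ratio of 0.12 (0.03 to 0.21). Thus *Six3* RNA was not lower in the DKO members as a whole. In cycling cells without *Atoh7* that carried *Pax6*, the eye field factor, *Six3* was lower in the DKO, at 307 CPM in control and 230 CPM in DKO cells. The share of cells without a *Six3* UMI was 17.3% (14.8 to 20.1) of control and 22.8% (19.5 to 26.3) of the shallower DKO members, against 9.71% (8.45 to 11.1) and 30.05% (28.1 to 32.0) of those cycling cells. At 3000 UMIs a cell the shares of members with a *Six3* UMI were nearly equal, at 52.7% (49.2 to 56.2) in control and 52.5% (48.4 to 56.7) in DKO. Since the alleles of *Six3* can still give transcripts counted at the 3′ end, a UMI of *Six3* does not show that a cell kept the gene.

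The 3 genes of the rule were as follows, as a description. *Atoh7* (ENSMUSG00000036816, chromosome 10, 63099651 to 63101279) had 2748 CPM in control and 2190 CPM in DKO members, with a median of 24 and 16 UMIs a cell. *Top2a*, the topoisomerase of mitotic chromosomes, stood at 985 and 1065 CPM. *Mki67*, which encodes the proliferation antigen Ki-67, stood at 455 CPM in both.

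Across all genes the members of the genotypes were much alike. Of 9426 genes with at least 50 UMIs in the members of either library, 93.2% lay within 1.5-fold of each other, and the median log2 ratio was 0.02. At least 2-fold higher in DKO members were 133 genes (1.41%), and at least 2-fold lower were 56 (0.594%). These percentages are the background for the gene lists below. For the counts of whole intervals, the background is 1639 of the 9426 genes wholly above 0 and 1126 wholly below. Among cycling cells without *Atoh7*, 356 of 11480 genes (3.101%) were at least 2-fold higher in the DKO and 90 (0.784%) lower, and among *Atoh7* cells without a *Top2a* or *Mki67* UMI, 215 of 9338 (2.30%) were higher and 112 (1.20%) lower. The 3 sets of cells differ in summed UMIs, which sets how many genes reach the minimum, so their counts are given side by side and not compared.

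**Figure D2:**
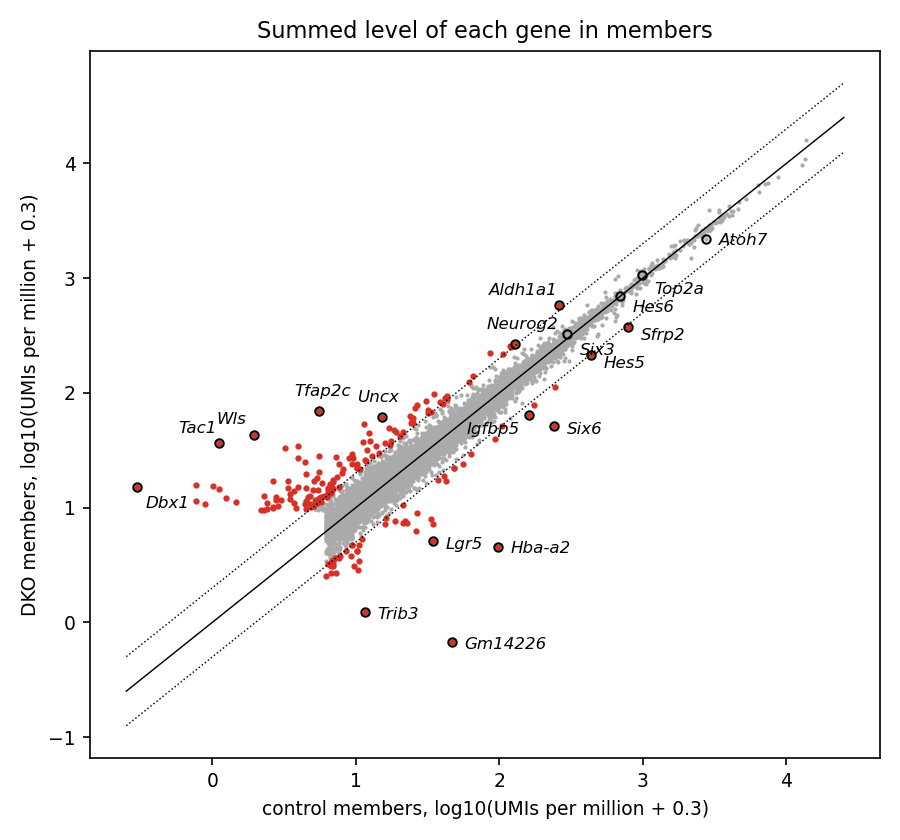
Summed level of each of the 9426 genes with at least 50 UMIs in control (x axis) and DKO (y axis) members, as log10 of CPM plus 0.3; the solid line marks equal levels, the dotted lines 2-fold, and genes beyond 2-fold are red. *Atoh7*, *Hes6* and *Top2a* lie near the line, while *Gm14226* at 46.3 against 0.369 CPM and *Tac1* at 0.820 against 36.2 CPM lie far from it.

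The neurogenic progenitor genes went both ways in DKO members, mostly by less than 2-fold. Of 31 listed, 30 had at least 50 UMIs, 10 had their whole interval above 0 and 12 below, 2 were at least 2-fold higher and 1 lower, and the median log2 ratio was -0.05. *Hes6* measured 688 (671 to 706) CPM in control members and 700 (678 to 723) CPM in those of the DKO, a log2 ratio of 0.02 (-0.03 to 0.08). The Notch ligand *Dll1* stood at 106 and 99.3 CPM and *Dll4* at 57.2 and 56.1 CPM, with log2 ratios of -0.09 (-0.25 to 0.06) and -0.03 (-0.24 to 0.18). *Sox11* and *Sox4*, SOX factors of young neurons, each had a log2 ratio of -0.05. The intervals of *Hes6*, *Dll1* and *Dll4* all include 0.

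Most of the measured proneural bHLH genes were higher in DKO members. Of 14 listed proneural bHLH factors, 9 were measured, 7 of these lay above 0 with their whole interval, and 3 were at least 2-fold higher. The list also holds *Atoh7*, a gene of the rule, which had the lowest ratio of the 9 at -0.33. That value describes the chosen cells and is no finding. *Neurog2* (ENSMUSG00000027967, chromosome 3, 127633135 to 127635631), a bHLH factor that precedes *Atoh7* at the neurogenic front, was counted at 129 (121 to 136) CPM in control members and at 266 (252 to 280) CPM in DKO members, a log2 ratio of 1.05 (0.93 to 1.16). *Nhlh2*, a bHLH factor of young neurons, stood at 18.2 and 47.1 CPM, a log2 ratio of 1.37 (1.08 to 1.67). *Neurod1* had a log2 ratio of 0.27 and *Olig2* one of -0.13 (-0.48 to 0.22).

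*Neurog2* was seen in more DKO members and not only at a higher level in a few. At 3000 UMIs a cell, which left out 18 control and 31 DKO members, 27.3% (24.2 to 30.5) of the control and 48.0% (43.8 to 52.2) of the DKO members had a *Neurog2* UMI. Unthinned, the shares were 48.4% and 65.0%. Red blood cells, which should lack it, had a *Neurog2* UMI in 0.282% and 1.64% at the same thinned depth, at median depths before thinning of 8548.5 and 6569.5 UMIs against 9067.5 and 7699 in the members. The difference held on both sides of the cell cycle: on the S-phase side *Neurog2* stood at 118 CPM in control and 222 CPM in DKO, and on the G2 and mitosis side at 142 and 302 CPM. It also held in each tertile of the members by *Atoh7* level, with 56.2 against 146 CPM at the lowest *Atoh7*, 115 against 346 CPM in the middle and 250 against 487 CPM at the highest.

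Other genes of neurogenic cells and ganglion cell precursors differed in both directions. *Penk*, an opioid precursor gene expressed by neurogenic progenitors, stood at 31.7 and 66.6 CPM, a log2 ratio of 1.07 (0.84 to 1.30). *Gadd45g*, a growth arrest gene, had a log2 ratio of 0.58, whereas its relative *Gadd45a* measured 634 (617 to 651) CPM in control members and 419 (402 to 436) CPM in those of the DKO, a log2 ratio of -0.60 (-0.67 to -0.53). *Dlx2*, a homeodomain factor of ganglion cell precursors, stood at 72.0 and 38.4 CPM, a log2 ratio of -0.91 (-1.14 to -0.68), and its neighbour *Dlx1* had -0.35. *Gm14226* (ENSMUSG00000084897, chromosome 2, 155018266 to 155027104) had 395 UMIs in control and 2 in DKO members, a log2 ratio of -6.97 (-10.02 to -5.11). *Gm14226* was also nearly missing from all other kept DKO cells, at 29.6 CPM in control and 0.0604 CPM in DKO, so its absence was not particular to the members.

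Among 5 measured HES and HEY repressors, *Hes5* and *Hes1* were lower in DKO members with their whole interval, and *Hes5* was the one that was 2-fold lower. *Hes5* (ENSMUSG00000048001, chromosome 4, 154960923 to 154962371) had 437 (423 to 451) CPM in control members, against 212 (200 to 225) CPM in DKO members, a log2 ratio of -1.04 (-1.14 to -0.95). At 3000 UMIs a cell, 45.9% (42.5 to 49.4) of control and 32.8% (28.9 to 36.8) of DKO members had a *Hes5* UMI, against 1.41% and 0.727% of red blood cells. *Hes1*, which marks naive progenitors, stood at 61.8 and 48.6 CPM, a log2 ratio of -0.35 (-0.57 to -0.13), and *Hes6*, which opposes them, 0.02. The Notch genes themselves moved little: of 14 measured ligands, receptors and modifiers, none was 2-fold apart, the median was -0.08, and *Notch1* stood at 263 and 251 CPM. *Nrarp*, a feedback target of Notch, had a log2 ratio of -0.33 (-0.61 to -0.05).

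In control members, *Hes5* and *Atoh7* were high in the same cells. From the lowest to the highest tertile by *Atoh7* level, control *Hes5* stood at 240, 495 and 660 CPM, and DKO *Hes5* at 150, 294 and 270 CPM. So the gap between genotypes was widest where *Atoh7* was highest. *Hes1* ran the other way in both genotypes, from 104 to 21.2 CPM in control and from 72.1 to 17.4 CPM in DKO members.

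These tertiles also show how the members are ordered by *Atoh7*, though *Atoh7* itself belongs to the rule. From the lowest to the highest tertile, *Hes6* went from 335 to 1158 CPM in control and from 407 to 1276 CPM in DKO members, and *Dll4* from 13.6 to 132 CPM and from 14.5 to 165 CPM. The Wnt antagonist *Sfrp2*, high in naive progenitors, went from 1364 to 189 CPM in control and from 520 to 122 CPM in DKO members. These 3 genes ran in the same direction in both genotypes, unlike *Hes5* between its middle and highest tertile. In the DKO, 38.04% of the members fell in the lowest tertile, 32.2% in the middle and 29.7% in the highest, against 29.9%, 34.1% and 35.9% in control. The lowest tertile was also the deepest, with medians of 12861 and 11530 UMIs, and held most of the called doublets, at 28.1% of its control and 23.1% of its DKO cells.

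The naive progenitor genes split into a lower and a higher set. All 25 listed were measured, 13 had their whole interval below 0 and 8 above, and 2 were at least 2-fold lower, *Six6* and *Sfrp2*. *Sfrp2* measured 788 (770 to 807) CPM in control members and 373 (357 to 389) CPM in those of the DKO, a log2 ratio of -1.08 (-1.15 to -1.01). The frizzled receptor *Fzd5*, the FGF ligand *Fgf9* and the inhibitor of bHLH factors *Id1* had log2 ratios of -0.53, -0.55 and -0.58. On the other side stood *Vim*, the vimentin filament gene, at 665 (647 to 682) and 1042 (1015 to 1070) CPM, and *Ccnd1*, the G1 cyclin of retinal progenitors, at 915 (895 to 936) and 1177 (1148 to 1206) CPM. *Pax6*, *Rax* and *Lhx2*, eye field factors, had log2 ratios of -0.14, 0.09 and 0.38.

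**Figure D3:**
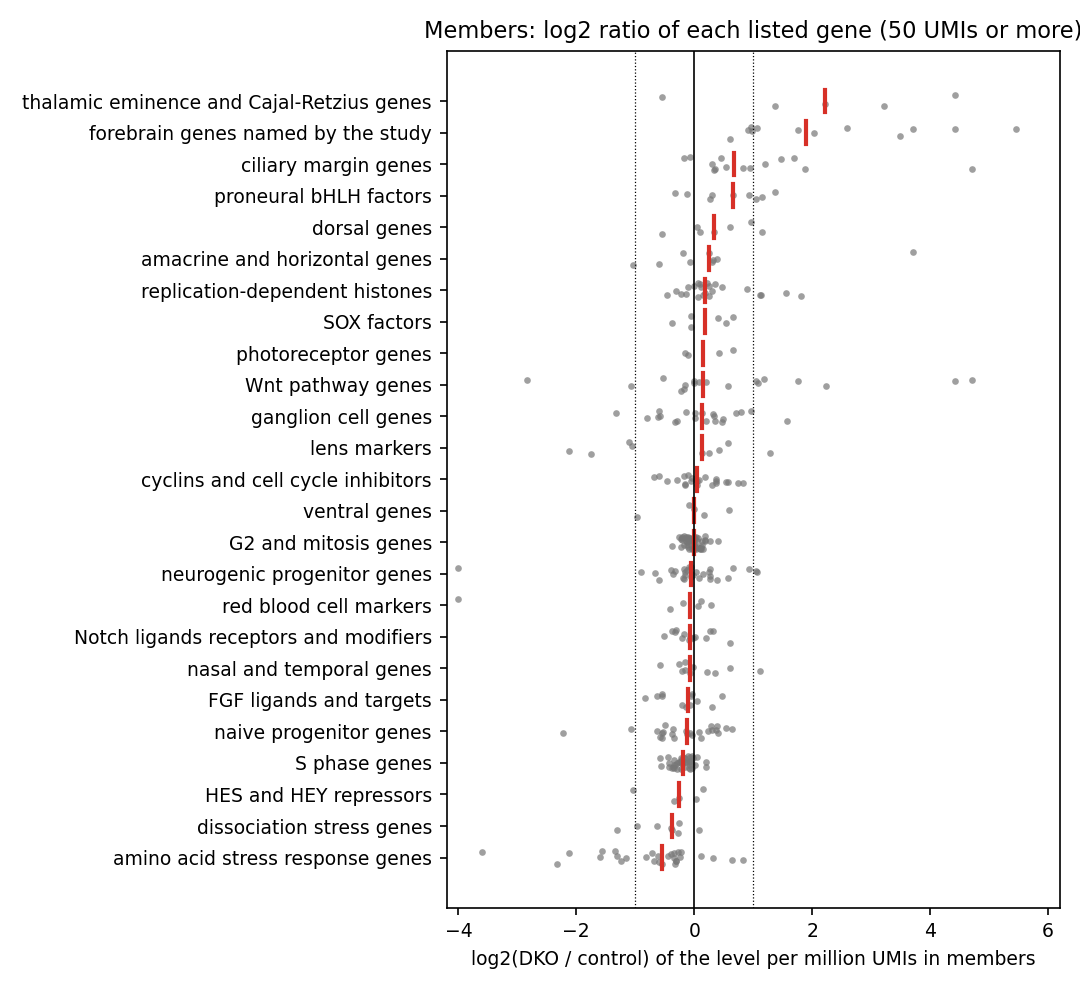
Each point is a listed gene with at least 50 UMIs in the members of either library, placed by its log2 ratio of DKO over control level; red bars are list medians, dotted lines mark 2-fold, and *Gm14226* at -6.97 and *Hba-a2* at -4.52 are drawn at the left edge of -4. The medians of the neurogenic, Notch and G2 and mitosis lists lie near 0, while forebrain genes have a median of 1.90 and amino acid stress response genes one of -0.54.

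Genes of ganglion cells, the first neurons that *Atoh7* cells form, also went both ways. Of 24 listed, 21 were measured, 10 had their whole interval above 0 and 7 below, and 1 was at least 2-fold higher and 1 lower, with a median of 0.13. *Igfbp5*, an insulin-like growth factor binding protein of young ganglion cells, measured 160 (152 to 169) CPM in control members and 64.1 (57.5 to 71.2) CPM in those of the DKO, a log2 ratio of -1.32 (-1.50 to -1.15). *Isl1*, a LIM homeodomain factor that ganglion cells need, stood at 110 and 72.4 CPM, a log2 ratio of -0.60 (-0.77 to -0.43), and *Eya2*, a coactivator of the eyes absent family, had -0.59. The general neuronal genes were on the other side, with *Dcx*, a microtubule protein of migrating neurons, at 26.4 and 78.1 CPM, a log2 ratio of 1.57 (1.33 to 1.81), and *Stmn2* and *Gap43*, genes of growing axons, at 0.48 and 0.71. Without the called doublets the list median was 0.38.

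The cell cycle genes that the rule left unused were close to equal. None of 52 G2 and mitosis genes and none of 43 S-phase genes was 2-fold apart, with medians of -0.01 and -0.18. The S-phase genes leaned one way, with 19 of 43 wholly below 0 and none wholly above, led by *Ung* at -0.58 and *Rrm2*, the ribonucleotide reductase subunit, at 281 and 190 CPM. When members were placed by the share of S-phase UMIs in their cell cycle UMIs, with the limit at the median of all members, 53.4% (49.9 to 56.8) of control and 45.3% (41.3 to 49.4) of DKO members lay on the S side. That limit cuts through a continuous range, with 163 control and 127 DKO members within 0.05 of it. *Cdkn1c* and *Cdkn1a*, inhibitors of cyclin-dependent kinases, had log2 ratios of 0.54 and 0.75, and *Ccnd2* 0.83. Of 23 measured replication-dependent histones 4 were at least 2-fold higher, up to *Hist1h4c* at 1.81, but these near-identical genes can share reads and their single values are uncertain.

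The forebrain genes named by the study were higher in DKO members, and none of them was without UMIs in control. Their summed level was 302 CPM in control and 780 CPM in DKO members. All 12 forebrain genes that the study named from these samples were measured, 12 had their whole interval above 0 and 8 were at least 2-fold higher, with a median of 1.90. The list was chosen on these samples and is no independent evidence of direction. *Tac1*, a tachykinin precursor, had 7 UMIs in control and 196 in DKO members, 0.820 (0.330 to 1.69) and 36.2 (31.3 to 41.6) CPM. *Tfap2c*, an AP-2 factor, stood at 5.27 (3.84 to 7.05) and 69.4 (62.6 to 76.8) CPM, and *Uncx*, a homeodomain factor, at 15.0 and 61.5 CPM. *Dbx1*, a homeodomain factor of the neural tube and forebrain, had no UMI in control and 80 UMIs in DKO members, a log2 ratio of at least 5.39 when 3 UMIs over the control members are taken as the floor.

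Ciliary margin genes were mostly higher in DKO members, while Wnt genes went both ways. Of 20 ciliary margin genes, which mark the rim of the retina, 14 were measured, 12 had their whole interval above 0 and 5 were at least 2-fold higher, with a median of 0.68. *Wls*, needed for Wnt secretion, measured 1.64 (0.897 to 2.75) CPM in control members and 42.8 (37.5 to 48.7) CPM in those of the DKO, a log2 ratio of 4.71 (3.93 to 5.601). *Gja1*, a gap junction gene, stood at 30.3 and 83.8 CPM, a log2 ratio of 1.47. Of 18 measured Wnt genes, a list that also holds *Wls*, 8 had their whole interval above 0 and 5 below, 7 were at least 2-fold higher and 2 lower, and the median was 0.15. Their summed level was 1714 CPM in control and 1382 CPM in DKO members. The targets *Axin2* and *Nkd1* had log2 ratios of 2.24 and 1.04, while *Lgr5*, an R-spondin receptor and itself a Wnt target, stood at 34.2 and 4.80 CPM, a log2 ratio of -2.83 (-3.47 to -2.25). Dorsal and ventral genes of the retina were less moved as lists, with medians of 0.34 and near 0, but the dorsal retinoic acid enzyme *Aldh1a1* stood at 261 and 581 CPM and the ventral factor *Vax2* at 69.9 and 35.6 CPM.

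The genes of highest ratio were detected in part of the DKO members. The 10 genes of highest ratio were *Tac1*, *Dbx1*, *R3hdml*, *Wls*, *Pou3f4*, *Rspo3*, *Rgs4*, *Ccdc66*, *Tfap2c* and *Sncb*. They were chosen for their ratio in these same members, with at most 45 UMIs in control, so the direction of their detection was fixed by the choice and the shares are a description. At 3000 UMIs a cell, at least 1 of them was detected in 209 of 571 DKO members (36.6%, 32.6 to 40.7) and in 24 of 814 control members (2.95%, 1.90 to 4.36). At least 2 of them were detected in 61 DKO members (10.7%, 8.27 to 13.51) and in none of the 814 control members, where 3 counts of the total, or 0.369%, is the limit for cells with such UMIs at this depth. Without the called doublets the shares with at least 1 were 34.8% and 3.09%. *R3hdml* and *Rgs4* came from few cells, with UMIs in 10 and 21 DKO members, and *R3hdml* was seen in only 1 control member. Its log2 ratio was 5.05, and 4.19 without the members that held a macrophage marker UMI. *Tfap2c*, by contrast, was detected in 15.9% of DKO members at equal depth, against none of the red blood cells.

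Cells with none detected at 3000 UMIs are not cells without these genes. Counted at full depth, the 362 such DKO members held 249 UMIs of the 10 genes, against 65 in 790 such control members. In them *Wls* still stood at 14.8 CPM and *Tfap2c* at 26.5 CPM, against 1.64 and 5.27 CPM in all control members. Both genes were chosen for their ratio in these members, so these levels are a description only.

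DKO members with and without a detected gene of the 10 differed in other genes, which were not used to divide them. Those with at least 1 detected had *Six3* at 233 CPM and those with none detected at 383 CPM. All control members, with 1 functional *Six3* allele, had 298 CPM. *Ccnd1* stood at 718 and 1489 CPM, on opposite sides of the 915 CPM of control. *Vim* stood at 1325 and 868 CPM, and *Atoh7* at 1786 and 2394 CPM. *Neurog2* was above, and *Hes5* below, the control level in both, with *Neurog2* at 285 and 247 CPM and *Hes5* at 195 and 224 CPM. *Hes6* was about level, at 691 and 704 CPM. The median depths of these cells were 8577 and 7198.5 UMIs, and 34 of the 209 and 34 of the 362 were called doublets. Without the doublets *Six3* stood at 200.8 and 380 CPM and *Ccnd1* at 692 and 1544 CPM.

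**Figure D4:**
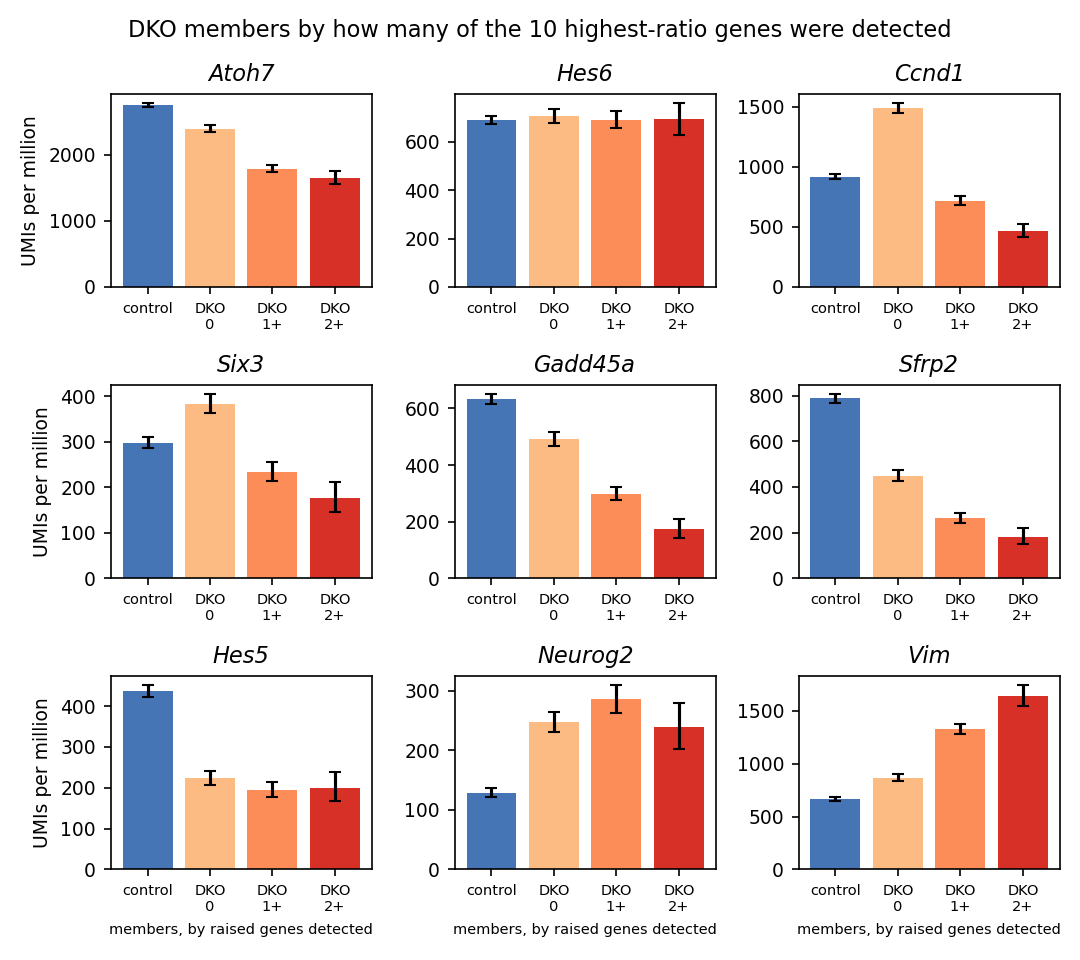
Level of 9 genes, in CPM with 95% exact Poisson intervals, in all control members (blue) and in DKO members with 0, at least 1 or at least 2 of the 10 raised genes detected at 3000 UMIs. *Ccnd1* and *Six3* lie above control in DKO members with none detected and below it in those with at least 1, *Hes5* is below control in every DKO bar and *Neurog2* above it.

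Members without any *Six3* UMI were set apart as well, being 144 control and 137 DKO cells with medians of 6319.5 and 6021 UMIs. In them *Ccnd1* stood at 805 CPM in control and 632 CPM in DKO, the reverse order of all members, and *Neurog2* at 156 and 385 CPM. *Vim* stood at 543 and 1206 CPM, *Sfrp2* at 407 and 139 CPM and *Tfap2c* at 6.17 and 150 CPM. The median of the ciliary margin genes was 1.15 in these cells. A cell without a counted *Six3* transcript need not have lost the gene.

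The amino acid stress response genes, a list chosen after their values were seen, were lower in DKO members. They are targets of the ATF4 factor, which cells use when amino acids run short. Of 31 listed, 29 were measured, 22 had their whole interval below 0, 9 were at least 2-fold lower, and the median was -0.54. The pseudokinase *Trib3* stood at 11.2 and 0.923 CPM, the glutathione-degrading enzyme *Chac1* at 34.1 and 6.83 CPM, and the mitochondrial folate enzyme *Mthfd2* at 173 and 77.7 CPM. The same list had medians of -0.71 in *Atoh7* cells without cycling genes and -0.22 in cycling cells without *Atoh7*, so lower levels were not confined to the members. Dissociation stress genes were lower too, with 7 of 8 measured wholly below 0, and the part of handling in either list was not tested.

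Set beside their neighbours, the members shared some differences and held others to a smaller or larger size. *Neurog2* had log2 ratios of 1.05 in members, 2.22 (1.999 to 2.44) in *Atoh7* cells without cycling genes and 0.87 (0.66 to 1.09) in cycling cells without *Atoh7*. *Hes5* had -1.04, -0.48 and -0.35, the members being the lowest. *Dll1*, at -0.09 in members, had 1.39 in the cycling cells without *Atoh7*, and *Dll4* had 1.92 there with an interval that reached 0, but from levels of 4.84 and 0.132 CPM in control. *Six6*, *Sfrp2* and *Gadd45a* were lower, and *Wls*, *Uncx*, *Tfap2c* and *Gja1* higher, in all 3 sets of cells. No test of these differences was possible with 1 library a genotype. The intervals give counting error alone.

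**Figure D5:**
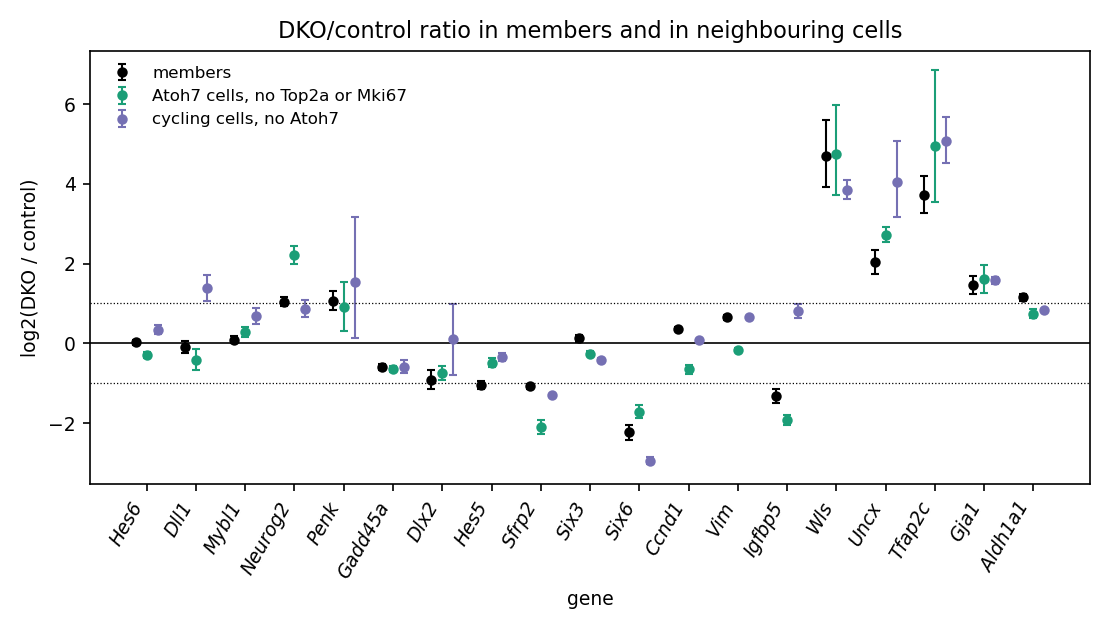
Log2 ratio of DKO over control level for 19 genes in members (black), *Atoh7* cells without *Top2a* or *Mki67* (green) and cycling cells without *Atoh7* (purple), with 95% exact intervals for counting error; dotted lines mark 2-fold. *Hes5* has its lowest ratio in members at -1.04, and *Six3* lies at 0.12 in members but below 0 in both other sets.

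The lowest ratios after *Gm14226* included genes of other sources. *Hba-a2* stood at 97.3 and 4.25 CPM in members, but its counts can be split with the near-identical *Hba-a1*, which stood at 371 and 451 CPM, and its ratio was -5.36 in cycling cells without *Atoh7*. The lens crystallins *Crybb1* and *Cryba2* stood at 25.8 and 5.91 CPM and at 9.37 and 2.77 CPM. At 3000 UMIs *Crybb1* was detected in 6.88% of control members and in 5.17% of control red blood cells, and in 1.05% and 1.64% of those of the DKO. Its share in members was thus near that of a cell type that should lack it. *Sesn2*, of the stress list, and *Msln*, the mesothelin gene, completed the 10 lowest with *Trib3*, *Lgr5*, *Chac1* and *Six6*.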

How the data were processed

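Eyecups of embryonic day 13.5 mice were profiled with 10x Genomics 3′ single-cell RNA-seq. The libraries, 1 of control and 1 of littermate DKO eyecups, were grouped by the genotype in their labels. Per the labels, reads were mapped to mm10 and counted with Cell Ranger 3.1.0 by the authors, and the deposited matrices hold UMI counts for each gene and cell, with no normalization.

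Kept cells had over 200 and under 6000 genes, 1 to 20% mitochondrial UMIs, under 20% hemoglobin UMIs and under 1% *Cryaa* plus *Cryab* UMIs. The study's own limits alone left 9822 control and 12146 DKO cells. Members held at least 3 *Atoh7* UMIs and at least 2 of *Top2a* plus *Mki67*. Members and gene lists were chosen with earlier results of these data known, and members were chosen by values that also enter the levels of those 3 genes.

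UMIs were summed over members of a library and divided by their total, 8537468 UMIs in control and 5416262 in DKO, to give counts per 1000000 UMIs (CPM). Genes with at least 50 UMIs in either library were compared as log2 ratios. Ratios carry 95% exact binomial split intervals, levels exact Poisson intervals and shares exact binomial (Clopper-Pearson) intervals. A gene was counted as 2-fold apart by its ratio alone. UMIs collapse PCR copies, but capture and the animals add error that the intervals do not hold. The ratio and its interval were tested on simulated data with known ratios.

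Named genes were *Atoh7*, *Top2a*, *Mki67*, *Six3*, *Six6*, the 10 highest and 10 lowest ratios, and, in each list, the extremes, the genes at least 2-fold apart and the most abundant. Not every list gene at least 2-fold apart is printed above. Other list genes named beside these were chosen after their values were seen. Doublets were called with Scrublet in scanpy 1.11.5 at a threshold of 0.21 in both libraries. Cells were thinned by drawing UMIs without replacement. Coordinates are of GENCODE on GRCm38, the build of mm10, and promoters are from RefSeq. Alternatives changed the cell limits, the member limits, the depth, the doublets, the total, the weight of cells, the cell cycle mix, the minimum and a pseudocount of 100 CPM. Of the alternatives, the share among cells with a *Pax6* UMI and the ratios without members that held a macrophage marker UMI were chosen after values were seen.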

Additional observations from a re-analysis of the deposited data

Results flagged for a closer look

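*Igfbp5* and *Cryab* were singled out because their difference between genotypes had the opposite sign in members and in cycling cells without *Atoh7*, each with its whole counting interval on 1 side of 0. With 1 library for each genotype this difference was not tested. *Igfbp5* had a log2 ratio of DKO over control of -1.32 in members and 0.81 in cycling cells without *Atoh7*, at 160 and 64.1 CPM in the former and 20.01 and 35.2 CPM in the latter. Without the called doublets, its ratio in members was -1.63. *Cryab*, a lens crystallin, had a log2 ratio of 1.29 in members and -0.73 in cycling cells without *Atoh7*. In members it was 0.85 once those with a macrophage marker UMI were left out and -0.23 under the study's own cell limits. *Cryab* is itself part of the crystallin limit that chose the kept cells, so its ratio depends on that choice and is no finding about the members.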

How the results depend on the processing

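No paired analysis was possible because control and DKO had 1 library apiece, and no replicate could be left out. The lower share of members in the DKO held its sign under all 10 alternatives run; 8 lay within the counting interval of the reported value, and the shares of *Atoh7* cells and of cycling cells were the exceptions at -0.37 and -0.46. Among cells with a *Pax6* UMI, an alternative chosen after the values were seen, it was -0.89. Genes at least 2-fold higher numbered 133 as reported, 72 after thinning, 65 in members without a *Six3* UMI, 67 at a minimum of 100 UMIs, 506 at a minimum of 10 UMIs and 0 with the pseudocount. Genes at least 2-fold lower numbered 56, and 29, 247 and 1 under the last 3 of these. The pseudocount shrinks genes below it by construction.

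The neurogenic progenitor median was -0.05, against -0.0043 with cycling genes at 1 UMI, -0.20 in members without a *Six3* UMI, 0.052 with each cell counted the same and -0.10 at an equal cell cycle mix. In members without a *Six3* UMI the Notch median was -0.28, the naive progenitor median -0.020, the ganglion cell median 0.53, the ciliary margin median 1.15 and the forebrain median 1.48. The ganglion cell median, 0.13 as reported, was 0.25 and 0.019 with *Atoh7* at 2 and 5 UMIs, 0.20 and -0.076 with cycling genes at 1 and 4 UMIs, 0.038 after thinning, 0.38 without doublets, 0.066 at an equal cell cycle mix, 0.20 at a minimum of 10 UMIs and 0.028 with the pseudocount, so its sign is not stable. The ciliary margin median was 0.14 with the pseudocount, and the forebrain median 1.35 after thinning and 0.32 with the pseudocount. The S-phase median, -0.18 as reported, was -0.093 after thinning, -0.050 at an equal cell cycle mix and -0.35 in members without a *Six3* UMI. The G2 and mitosis median, -0.01 as reported, was -0.12 at an equal cell cycle mix and 0.065 with cycling genes at 4 UMIs. These values lay within intervals of -0.42 to 0.06 and -0.17 to 0.15, which are too wide to show that the medians were stable. Of 1971 values of named genes under alternatives, 4 were reversed: *Cryab* at -0.23 under the study's own limits, and *Cryba4* at 1.36, *Crygd* at 1.67 and *Tfap2b* at 0.57 in members without a *Six3* UMI. The cause was not tested. Depth limits genes under about 50 UMIs in a library, and the DKO members were the shallower.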

Other observations

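Members with a *Neurog2* UMI at 3000 UMIs a cell carried other fate genes in much the same pattern in both genotypes. *Olig2*, a bHLH factor of a lineage that forms photoreceptors and horizontal cells, had a UMI in 14.0% of the 222 control members with *Neurog2* and in 3.72% of the rest, and in 12.8% of the 274 DKO members with *Neurog2* and in 2.02% of the rest. *Otx2*, which photoreceptors need, was seen in 43.2% against 18.1% of control members, and in 31.8% against 12.5% of those of the DKO. *Isl1* ran the other way, with 11.3% of control members that had *Neurog2* against 20.8% of the rest, and 4.74% against 13.8% in the DKO. *Hes5* differed between the genotypes in this respect, with 37.4% of control members that had *Neurog2* and 49.2% of those that had none, against 33.9% and 31.6% in the DKO. These shares describe sparse counts in 1 library of each genotype and were not tested.

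The transcription factors of retinal position were measured in the members as well. Among 11 nasal and temporal genes the median log2 ratio was -0.08, and *Nr2f2*, a nuclear receptor, was the member of that list that differed most, at 65.5 CPM in control and 141 CPM in DKO members. The FGF list, of 12 measured genes, had a median of -0.10, with the feedback phosphatase *Dusp6* at 57.5 and 37.3 CPM and *Fgf15* at 188 and 184 CPM.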
